A study of Mus musculus with 4 samples.

Results

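TRBV26 and TRBV14 are V segments of the T-cell receptor beta chain (TRB) and TRAV21-DV12 is a V segment of the alpha chain (TRA). Every assembled receptor contig that was marked productive and carried 1 of these 3 segments was taken, out of 75 V segments in the productive chains. The choice left 65 chains in 45 of 234 cells, with 18 chains in 14 control cells and 47 chains in 31 ATRA cells. These segments had been picked from earlier counts of the same cells, so their frequencies are a description and were given no test.

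The study concerned retinoic acid signaling and immune escape in IDH mutant glioma. C57BL6 mice aged 6 weeks received 50000 neurosphere cells into the striatum and then intraperitoneal all-trans retinoic acid (ATRA, an acid form of vitamin A, 10 mg/kg) or control every other day until signs of disease. Dissected tumor with the brain around it was digested, cells were sorted for CD45 (carried on the surface of immune cells), and a 10x Genomics 5-prime kit was used for the libraries. Each treatment gave 1 receptor library, and neither the number of mice behind it nor the origin of the neurospheres is stated in the sources used here. No test between treatments was therefore possible. Gene expression was not analysed here, and the cells were given no type.

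The control library held 108 productive chains in 74 cells, 70 of them with a TRB and 34 with a TRA chain. The ATRA library held 308 productive chains in 160 cells, 148 with a TRB and 133 with a TRA chain. A unique molecular identifier (UMI) marks 1 captured RNA molecule, and the productive chains carried 382 UMIs in control and 1841 in ATRA, with medians of 3 and 5 per chain. No cell barcode occurred in both libraries. Shares below carry exact Clopper-Pearson 95% intervals, which cover counting error only, and cells of 1 clone are not independent draws.

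A T cell builds its beta gene by joining a V, a D and a J segment, and its alpha gene by joining a V and a J segment. At each joint, enzymes remove bases from the segment ends and the polymerase TdT can add bases that no segment holds. The joined stretch encodes CDR3, the loop of the receptor that lies closest to the bound peptide. Daughter cells inherit the joint, so its nucleotides mark a lineage, whereas 1 amino acid sequence can be written by several nucleotide sequences. TRAV21-DV12 is named for its use in both alpha and delta chains.

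In the RefSeq annotation of GRCm38.p6, TRBV26 lies at chr6:41227525-41227913 and TRBV14 at chr6:41135167-41135616. The D segments are TRBD1 at chr6:41533201-41533212 (12 bases) and TRBD2 at chr6:41542163-41542176 (14 bases), and TRBJ2-1 follows at chr6:41542754-41542803. TRAV21-DV12 lies at chr14:53876016-53876752 and TRAJ53 at chr14:54162644-54162709.

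TRBV26 was in 11 of 70 TRB cells in control (15.7%, interval 8.11 to 26.4) and 17 of 148 in ATRA (11.5%, 6.84 to 17.8). Counted over distinct chains (V, J and CDR3 nucleotides) the TRBV26 shares were 15.3% (9 of 59) and 6.19% (7 of 113). TRBV14 was in 2 of 70 in control (2.86%, 0.348 to 9.94) and 13 of 148 in ATRA (8.78%, 4.76 to 14.6), and the intervals of the libraries overlapped for both segments. The control TRBV14 share was 1.69% (1 of 59) over distinct chains and 1.52% (1 of 66) without cells of extra chains. Of the cells with a TRBV26 chain, 22 of 28 shared 1 CDR3 pattern of 15 residues joined to TRBJ2-1. The same pattern was in 7 of the 15 cells with a TRBV14 chain. The most frequent CDR3 had leucine at position 5, counted from the first cysteine. The recurrent group was defined as all chains with the same other 14 residues and any residue at position 5. It held 29 of the 43 cells with a TRBV26 or TRBV14 chain, namely 9 of 13 in control (69.2%, interval 38.6 to 90.9) and 20 of 30 in ATRA (66.7%, 47.2 to 82.7). Counted over distinct chains, the group was 6 of 10 in control (60.0%) and 8 of 16 in ATRA (50.0%). Against all TRB cells the group made up 12.9% in control (6.05 to 23.0) and 13.5% in ATRA (8.45 to 20.1), so the libraries differed by less than their counting error. By V segment and nucleotides the 29 cells fell into 13 forms, numbered here by V segment and cell count. They are printed 5′ to 3′ because the variation among them is at the joints: lower case marks bases matched to the V or J end, and capitals mark the bases between.
Form 1, TRBV26: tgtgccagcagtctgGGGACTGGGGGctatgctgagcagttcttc
Form 2, TRBV26: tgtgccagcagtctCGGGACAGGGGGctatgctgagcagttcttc
Form 3, TRBV26: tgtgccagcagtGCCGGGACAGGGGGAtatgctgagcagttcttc
Form 4, TRBV26: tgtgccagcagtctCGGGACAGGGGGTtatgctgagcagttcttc
Form 5, TRBV26: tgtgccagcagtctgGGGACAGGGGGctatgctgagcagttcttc
Form 6, TRBV26: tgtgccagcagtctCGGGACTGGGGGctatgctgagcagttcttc
Form 7, TRBV26: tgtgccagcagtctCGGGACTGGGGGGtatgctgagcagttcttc
Form 8, TRBV26: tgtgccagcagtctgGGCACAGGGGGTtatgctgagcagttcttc
Form 9, TRBV26: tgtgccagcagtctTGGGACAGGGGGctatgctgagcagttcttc
Form 10, TRBV14: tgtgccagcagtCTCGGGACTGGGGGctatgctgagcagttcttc
Form 11, TRBV14: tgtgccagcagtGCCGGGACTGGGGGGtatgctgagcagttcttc
Form 12, TRBV14: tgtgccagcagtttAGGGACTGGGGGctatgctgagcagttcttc
Form 13, TRBV14: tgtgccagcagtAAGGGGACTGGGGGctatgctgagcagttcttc

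The segment ends behind this split were read from the other chains of the same tables, since no germline V, D or J sequence was used here. A V or J end was extended as long as at least 4 distinct chains outside the group, and at least 25% of that segment's distinct chains, carried the next base. The D1 string was taken whole, at the RefSeq length of TRBD1, from junctions outside the group, at least 3 of which had to hold it. The D2 string was assembled from pieces of 10 bases seen in at least 3 such junctions and set to the RefSeq length of TRBD2. A D2 string that shared a long run of bases with D1 was not allowed. These rules were chosen after the sequences had been seen. The results are printed so that the split above can be followed.
TRBV26 end: tgtgccagcagtctg
TRBV14 end: tgtgccagcagttt
TRBJ2-1 start: aactatgctgagcagttcttc
Derived D1: gggacagggggc
Derived D2: gggactgggggggc
Support was uneven. The TRBV26 and TRBV14 ends were each whole in 4 of 6 distinct chains outside the group and the TRBJ2-1 start in 7 of 27. Derived D1 was whole in 3 of 144 other junctions and derived D2 in 1. A base that fitted both a segment end and its neighbour was given to the V or J end, so the c before tat counts as TRBJ2-1 although in the D1 forms it is also the next base of derived D1.

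The 13 forms were spread over the libraries with little sharing. Form 1 was in 8 ATRA cells and no control cell, and was the most frequent form. Form 2 was in 3 control cells and no ATRA cell. Form 3 was in 3 ATRA cells. Forms 4, 10 and 11 were in 2 ATRA cells each, and form 12 was in 2 control cells. Form 5 was the 1 form found in both libraries, with 1 cell in each. The remaining 5 forms were in 1 cell each: forms 6, 7 and 9 in control, and forms 8 and 13 in ATRA. Control thus held 6 forms over 9 cells and ATRA 8 forms over 20 cells. Little sharing was not particular to the forms. Control held 59 distinct TRB chains of any V segment and ATRA 113. Over both libraries there were the 13 forms and 156 distinct chains outside the group, so few chains of either kind were shared.

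**Figure D1:**
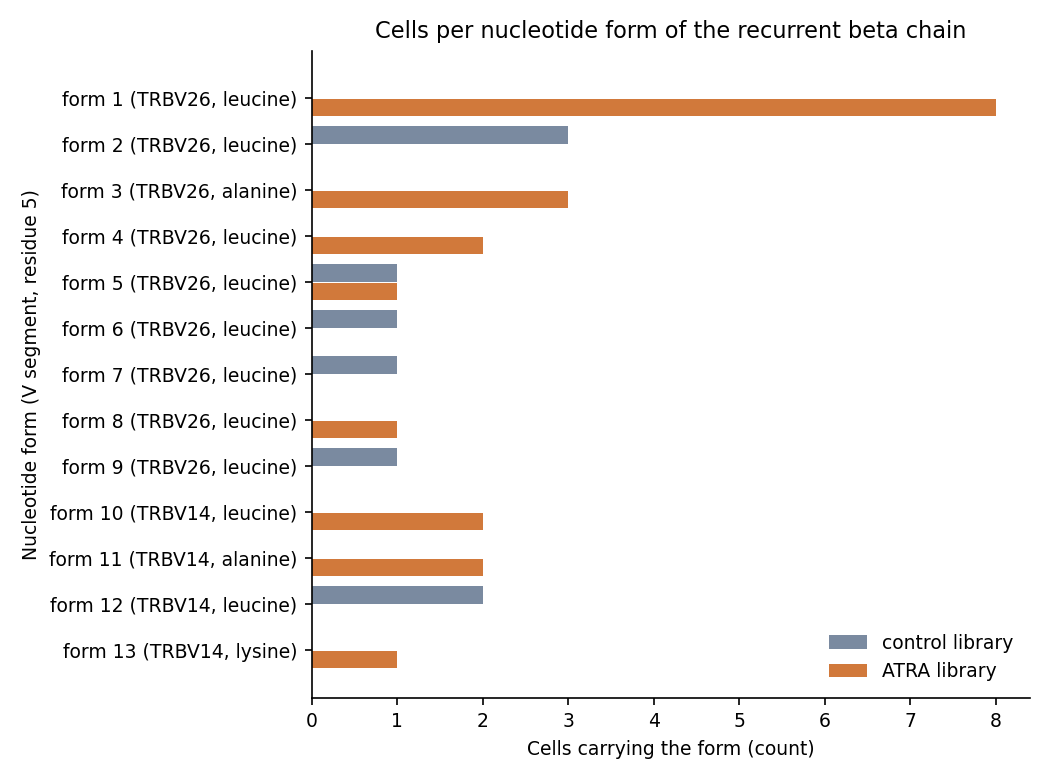
Number of cells (x axis, count) carrying each of the 13 nucleotide forms (y axis), with 1 bar per library. Form 1 stands at 8 ATRA cells, form 2 at 3 control cells, and form 5 has a bar of 1 cell in each library.

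By V segment, 9 forms used TRBV26 (7 control and 15 ATRA cells) and 4 used TRBV14 (2 and 5 cells). TRBV14 made up 22.2% of the group cells in control (interval 2.81 to 60.0) and 25.0% in ATRA (8.66 to 49.1). Forms 6 and 10 were identical in all 45 bases, although form 6 was assigned to TRBV26 in control and form 10 to TRBV14 in ATRA. The CDR3 alone therefore did not tell these V segments apart, and their assignment rests on the contig outside it.

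At position 5, 10 forms encoded leucine (9 control and 14 ATRA cells). Alanine was encoded by form 3 with TRBV26 and form 11 with TRBV14, in 5 ATRA cells together. Form 13, with TRBV14, encoded lysine in 1 ATRA cell on a single UMI. Residues other than leucine were thus in 6 of 20 ATRA group cells (30.0%, 11.9 to 54.3) and in 0 of 9 control group cells, which allows a share of up to 33.3%. The intervals overlap, the 6 ATRA cells came from forms 3, 11 and 13 alone, cells of 1 form are not independent, and no test was possible.

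The nucleotide differences lay in 4 of the 15 codons, and in 6 of the 45 bases. Codon 5 was written in 6 ways: ctc in 5 forms, ctg in 3, gcc in 2, and ctt, tta and aag in 1 form each. Codon 7, a threonine, was act in 7 forms and aca in 6, which is the base by which the derived D strings differ at that place. Codon 9, a glycine at the D-J joint, was ggc in 8 forms, ggg and ggt in 2 forms each and gga in 1. Codon 6 was ggg in 12 forms and ggc in form 8. The other 11 positions used 1 codon in all forms. Pairs of forms differed by 0 to 6 bases, with a median of 3 over 78 pairs.

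**Figure D2:**
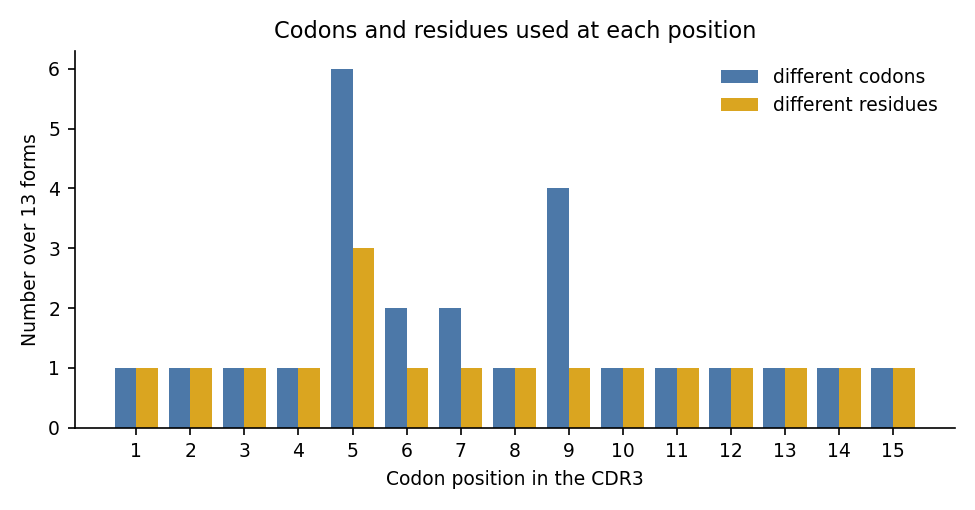
Number of different codons and of different residues (y axis) at each of the 15 codon positions of the CDR3 (x axis) over the 13 forms. Codons vary at positions 5, 6, 7 and 9, with 6 codons at position 5 and 4 at position 9, while residues vary at position 5 alone, where the group was left free.

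Some forms of 1 library were close to each other. Among the 6 control forms, 5 pairs with the same V segment were 1 base apart, involving forms 2, 5, 6, 7 and 9. Among the 8 ATRA forms the 1 such pair was form 1 and form 5. Forms 6, 7 and 9 stood on 1 cell each, with 2, 4 and 4 UMIs. The part of base errors in these single-cell forms was not tested.

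At the V end, the forms kept 12 to 15 bases. For TRBV26, 3 forms kept the whole derived end (forms 1, 5 and 8), 5 lacked 1 base (forms 2, 4, 6, 7 and 9), and form 3 lacked 3. The TRBV26 end itself finishes with the leucine codon ctg, so forms 1, 5 and 8 took residue 5 from V sequence alone. In forms 2, 4, 6, 7 and 9 the last base of that codon was c or t and still gave leucine. For TRBV14, whose derived end finishes with tt, form 12 kept the whole end and reached leucine as tta with 1 more base. Forms 10, 11 and 13 lacked 2 bases and held a whole unassigned codon 5, ctc, gcc and aag.

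At the J end, 8 forms lacked 2 bases of the derived TRBJ2-1 start and 5 lacked 3 (forms 3, 4, 7, 8 and 11). The median loss was 2 bases in the group (range 2 to 3). It was 0 where an end had to be carried by most of a segment's chains, so the loss depends on how the TRBJ2-1 start was derived. Over the 144 distinct TRB chains outside the group that could be split it was 1 (range 0 to 11), and over the 26 of these with TRBJ2-1 it was 2 (0 to 11).

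The D match was long in nearly every form. It was 11 bases in 10 forms, 12 in forms 7 and 11, and 8 in form 8, whose codon 6 breaks the match. A match of at least 11 bases was thus in 12 of 13 forms (92.3%), against 11 of the 144 other chains (7.64%) and 6 of the 26 others with TRBJ2-1 (23.1%). The group was defined by its residues, which fix most of these bases and the J segment, so this contrast describes the group and supports nothing about it. Which D string matched was not fixed by the residues, because both strings encode the same ones in that frame.

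Derived D1 matched 6 forms, all with TRBV26 (5 control and 7 ATRA cells). Derived D2 matched 7 forms, 3 with TRBV26 and all 4 with TRBV14 (4 control and 13 ATRA cells). D1 forms made up 55.6% of the group cells in control (21.2 to 86.3) and 35.0% in ATRA (15.4 to 59.2), with overlapping intervals. Among the other chains with a D match of at least 7 bases, those joined to TRBJ1 segments matched D1 in 22 of 24 and D2 in 2. Those joined to TRBJ2 segments matched D1 in 20 of 48 and D2 in 28. TRBD2 lies downstream of the TRBJ1 segments and does not normally join them. The TRBJ1 chains are still no independent check on the derived strings, because they were among the chains from which the strings were derived.

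Bases matched to no segment were counted next. Forms 1 and 5 had none at all. Forms 2, 6, 7, 9 and 12 had 1, form 4 had 2, forms 10, 11 and 13 had 3, and forms 3 and 8 had 4. The median was 1 (range 0 to 4), against 4 (0 to 14) over the 144 other chains, 3 (0 to 7) over those with TRBJ2-1, and 4 (0 to 13) over the 12 TRBV26 and TRBV14 chains outside the group. The fixed residues that set the long D match and the J segment also leave few bases to be unassigned, so this contrast too supports nothing about the group. The counts outside the group may also be too high, since a derived J start that stops short leaves J bases unassigned. Within the group the median was 1 over the 9 TRBV26 forms and 3 over the 4 TRBV14 forms. Unassigned bases stood on the V side of the D match in 11 forms and on the J side in 3 (forms 3, 4 and 8).

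All 6 control forms had at most 1 unassigned base. The 5 forms with 3 or 4 were found in 9 of 20 ATRA group cells (45.0%, 23.1 to 68.5) and in 0 of 9 control group cells, which allows a share of up to 33.3%. The intervals overlap, cells of 1 form are not independent, and no test was possible.

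**Figure D3:**
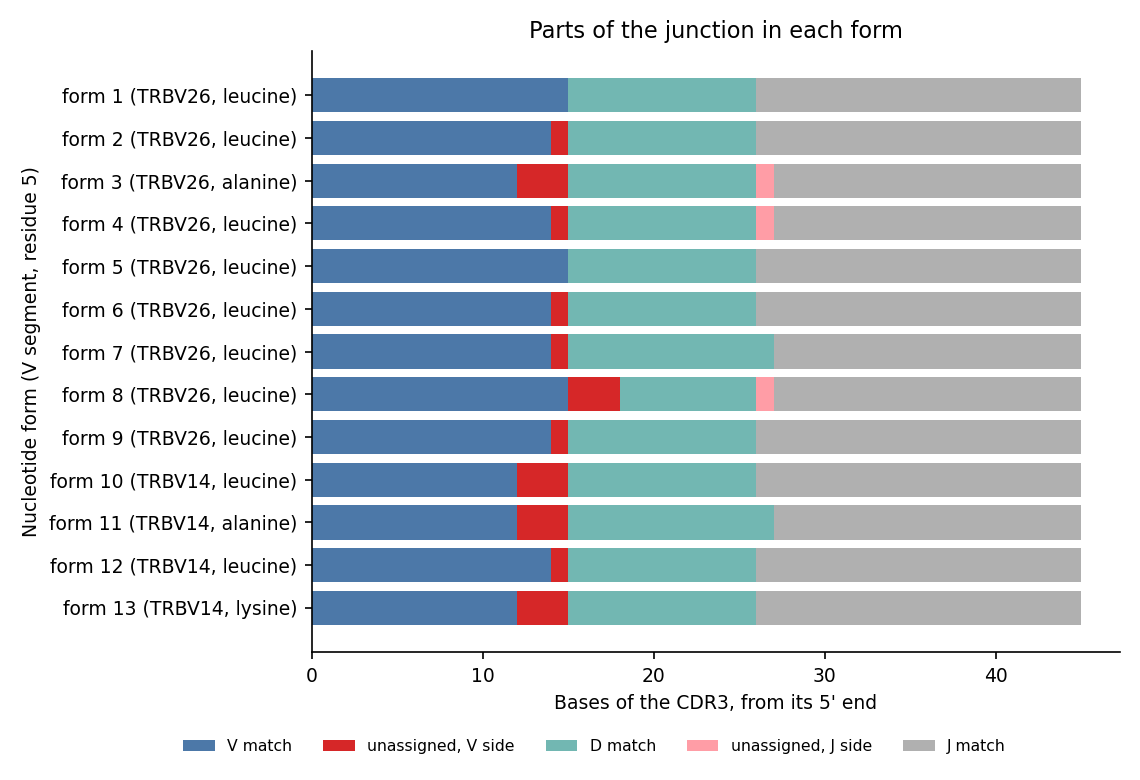
Bases of the 45-base CDR3 (x axis, from the 5′ end) assigned to the V end, to a D match, to the J start or to none of them, for each of the 13 forms (y axis). Forms 1 and 5 show no unassigned base, and the unassigned stretch of 3 bases on the V side is seen in forms 3, 8, 10, 11 and 13.

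CDR3s of equal length were also joined into similarity groups where at most 1 residue differed. The 8 TRBV26 CDR3s gave 7 groups, the 9 TRBV14 CDR3s gave 7, and the 15 CDR3s of both together gave 13. The recurrent group was the 1 similarity group with more than 1 CDR3, and it held 3. Over all TRB chains 153 CDR3s gave 145 groups, and outside the recurrent group 4 groups had 2 or more CDR3s, the most being 3 CDR3s and 11 cells. The leucine CDR3 was written by 10 forms in 23 cells. Of the 150 CDR3s outside the group, 26 were in at least 2 cells, and 4 of these had at least 2 forms, with 4 forms at most. None of the 150 was in more than 8 cells. The leucine CDR3 was picked as the most frequent of the TRBV26 and TRBV14 chains, so this contrast in forms supports nothing about it.

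No CDR3 with another V segment was within 1 residue of the group at equal length. With 1 inserted or deleted residue allowed, 2 were within 1 edit, both with TRBJ2-1 and both in 1 ATRA cell. The first used TRBV10, carried 5 UMIs and was paired with TRAV6N-5 and TRAJ16. The second used TRBV13-1, carried 7 UMIs, had no productive alpha chain, and ended in the same 10 residues as the group. It is printed because the shared end can be read from it, with the bases between its V and J matches in capitals.
TRBV13-1 with TRBJ2-1: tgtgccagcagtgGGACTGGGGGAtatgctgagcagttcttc

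Turning to the alpha chain, TRAV21-DV12 was in 5 of 34 TRA cells in control (14.7%, 4.95 to 31.1) and 17 of 133 in ATRA (12.8%, 7.63 to 19.7). Over distinct chains the shares were 12.5% (3 of 24) and 4.12% (4 of 97), and the control share was 8.70% (2 of 23) with at least 2 UMIs per chain and 8.33% (1 of 12) with at least 3. It was joined to TRAJ53 in 3 of 5 cells in control (60.0%, 14.7 to 94.7) and 15 of 17 in ATRA (88.2%, 63.6 to 98.5). The control share was 33.3% (1 of 3) over distinct chains and 0% (0 of 1) with at least 3 UMIs per chain. All 18 productive chains with TRAJ53 in these tables used TRAV21-DV12, and all encoded 1 CDR3 of 16 residues in 48 bases. They came in 3 nucleotide forms, which are printed with the 2 variable bases in capitals.
Alpha form 1: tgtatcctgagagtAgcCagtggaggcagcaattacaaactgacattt
Alpha form 2: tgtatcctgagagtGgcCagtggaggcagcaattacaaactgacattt
Alpha form 3: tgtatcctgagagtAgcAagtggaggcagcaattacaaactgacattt
Alpha form 1 was in 3 control and 10 ATRA cells, form 2 in 3 ATRA cells and form 3 in 2 ATRA cells. The first 14 and the last 30 bases were the same in all, and both variable bases were the last of their codon. Because no other V segment was joined to TRAJ53, its start could not be derived, and no count of added bases is given.

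Where both chains were read as productive, the recurrent beta group and TRAV21-DV12 went together. A productive alpha chain was in 4 of 9 group cells in control and 16 of 20 in ATRA. TRAV21-DV12 was in 4 of these 4 (100%, 39.8 to 100) and 15 of these 16 (93.8%, 69.8 to 99.8). The TRAJ53 chain was in 3 of 4 (75.0%, 19.4 to 99.4) and 14 of 16 (87.5%, 61.7 to 98.4). Seen from the alpha side, 3 of 3 TRAJ53 cells in control and 14 of 15 in ATRA carried a beta chain of the group. The pairing was part of how the segments were picked and is given as a description.

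Beta forms seen with the TRAJ53 chain kept to 1 nucleotide form of it among productive chains. Of the 13 beta forms, 7 were seen with the TRAJ53 alpha chain, 6 of them in at least 2 cells, and in all 6 every such cell had the same alpha form. Form 1 went with alpha form 1 in 6 cells, form 2 in 2 and form 10 in 2. Form 5 had alpha form 1 in its control cell and in its ATRA cell. Form 3, with alanine, had alpha form 2 in 2 cells, and form 4 had alpha form 3 in 2 cells. Form 13, with lysine, had alpha form 1 in its 1 cell. Alpha form 1 was thus beside 5 beta forms with both V segments, whereas alpha forms 2 and 3 were beside 1 beta form each.

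**Figure D4:**
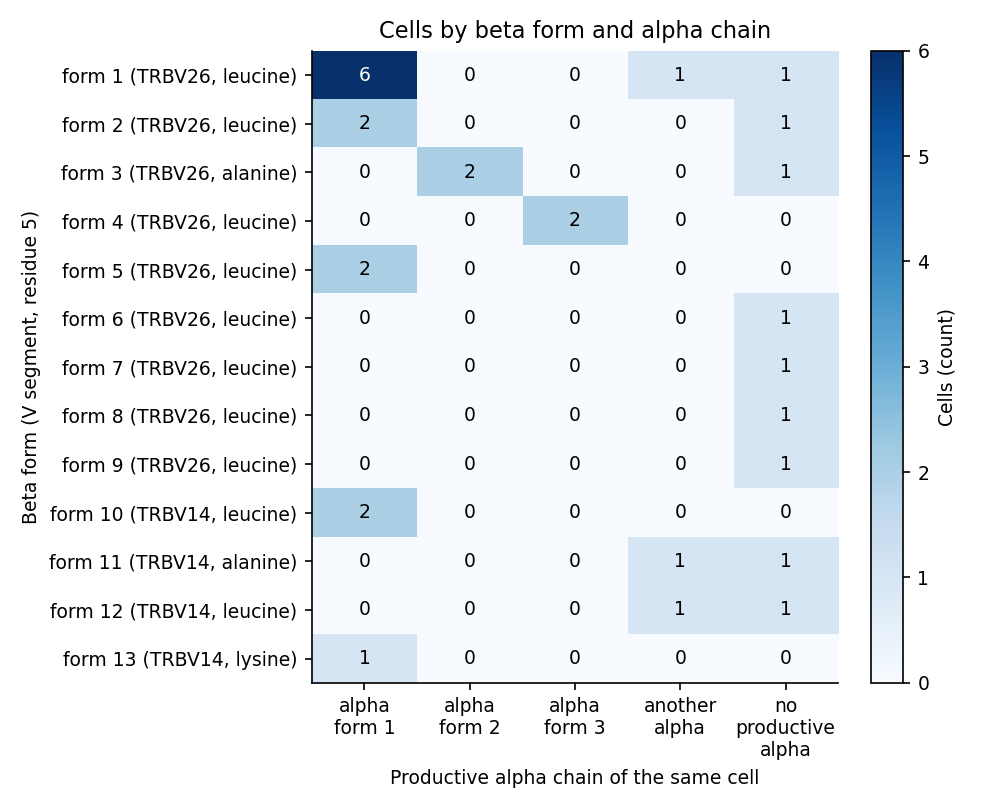
Number of cells (shade and printed count, both libraries together) for each beta form (rows) by the productive alpha chain of the same cell (columns). Form 1 has 6 cells with alpha form 1, form 3 has 2 with alpha form 2, form 4 has 2 with alpha form 3, and no beta form has cells with more than 1 TRAJ53 alpha form.

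The exceptions within the group were few. In 1 form 1 cell, with 12 UMIs for the beta chain, the alpha chain was TRAV14D-3-DV8 with TRAJ56. This was the 1 group cell with a productive alpha chain and no TRAV21-DV12. In 1 form 11 and 1 form 12 cell, TRAV21-DV12 was joined to TRAJ56. A nonproductive contig of TRAV10 with TRAJ56 was found in 3 form 1 cells and in no other cell. A second productive beta chain was in 3 group cells. In control, form 5 stood beside TRBV16 with TRBJ2-1 (5 UMIs), and a form 12 cell also held TRBV13-1 with TRBJ1-6. The other form 12 cell held the same TRBV13-1 and TRBJ1-6 pair of segments as a nonproductive contig. In ATRA, 1 form 4 cell had 32 UMIs for form 4 and 30 for TRBV13-1 with TRBJ2-7, and a second alpha chain, TRAV5D-4 with TRAJ37. Those 32 UMIs were the most of any TRB chain of the group. Whether a barcode with extra chains held more than 1 cell was not tested.

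Alpha form 2 was also in 1 ATRA cell whose beta chain was TRBV13-1 with TRBJ2-7 (12 UMIs). It was the 1 cell with a productive TRAJ53 chain and no beta chain of the group. The TRBV13-1 and TRBJ2-7 chain was in 5 ATRA cells in all, and 3 of these held a TRAJ53 contig, counting productive and nonproductive contigs. Beside the cell with alpha form 2, 1 was the form 4 cell with 2 beta chains and alpha form 3. The last held only a nonproductive contig of alpha form 1, so the 3 cells had different alpha forms.

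The 4 TRAV21-DV12 chains with another J used TRAJ50 or TRAJ56 and encoded 15 residues. In the RefSeq annotation TRAJ56 lies at chr14:54159263-54159325 and TRAJ50 at chr14:54167590-54167652, on either side of TRAJ53. The chains are printed because their joints differ: capitals mark bases that fitted both the V and the J side in the TRAJ50 and the ATRA TRAJ56 chains, and bases that fitted neither in the control TRAJ56 chain. The V side was the longest match to any other TRAV21-DV12 chain, junction bases included, and the J side from 1 other chain with TRAJ50 and 3 with TRAJ56.
TRAJ50, control: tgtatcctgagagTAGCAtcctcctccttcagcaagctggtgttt
TRAJ56, control: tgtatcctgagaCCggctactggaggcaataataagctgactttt
TRAJ56, ATRA: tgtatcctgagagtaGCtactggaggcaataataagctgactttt
The TRAJ50 chain had 5 bases that fitted both sides, the ATRA TRAJ56 chain had 2, and the control TRAJ56 chain had 2 bases that fitted neither. No TRAV21-DV12 end was derived, so these counts are no measure of added bases. The TRAJ50 chain rested on 1 UMI in 1 cell, whose beta chain was TRBV15 with TRBJ2-7. The control TRAJ56 chain had 3 UMIs in 1 cell, with form 12 beside it. The ATRA TRAJ56 chain was in 2 cells with different beta chains, form 11 (4 UMIs for the alpha chain) and TRBV14 with TRBJ1-5 (9 UMIs).

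Productive TRAJ56 chains were in 6 cells, 3 of them with TRAV21-DV12, and used 4 V segments. A TRBV26 or TRBV14 chain was in 5 of these cells, which was noticed after the values had been seen and is given as a description. Over all cells with both chains, such a chain was in 31 of 151 (20.5%), and in 15 of 134 (11.2%) without TRAJ53. Of the 5 cells, 3 had a beta chain of the recurrent group (forms 1, 11 and 12) and 2 had another TRBV14 chain, with TRBJ1-5 and TRBJ1-1.

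TRBV26 and TRBV14 chains outside the recurrent group were diverse. They came to 12 distinct chains in 14 cells, with 6 TRBV26 chains in 4 control and 2 ATRA cells, and 6 TRBV14 chains in 8 ATRA cells. No control TRB cell had a TRBV14 chain outside the group, 0 of 70, which allows a share of up to 4.29%. The 12 chains used 7 J segments and none used TRBJ2-1. Their CDR3s had 11 to 17 residues, and the closest was 5 edits from the group. Unassigned bases ranged from 0 to 8 in the TRBV26 chains (median 3) and from 0 to 13 in the TRBV14 chains (median 4). A derived J start that stops short leaves J bases unassigned, so these counts may be too high.

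Of these 12 chains, 2 were in more than 1 cell, and both were TRBV14 chains in 2 ATRA cells. They are printed with the TRBV26 chain of control whose joint is most like the group's V-D joint, a likeness noticed after the sequences were seen. Capitals mark the bases between the V and J matches.
TRBV14 with TRBJ1-5, ATRA: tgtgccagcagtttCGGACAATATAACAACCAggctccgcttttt
TRBV14 with TRBJ2-7, ATRA: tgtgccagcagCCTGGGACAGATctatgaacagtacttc
TRBV26 with TRBJ2-5, control: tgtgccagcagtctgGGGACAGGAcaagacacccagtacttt
The TRBJ1-5 chain had 2 and 3 UMIs in its cells, and 13 unassigned bases. Those next to its J start were also in a TRBV26 chain with TRBJ1-5, so some of the 13 may be J sequence. Alpha partners of the TRBV14 chain with TRBJ1-5 were TRAV7D-3 with TRAJ24 in both cells, and TRAV21-DV12 with TRAJ56 in 1. The TRBJ2-7 chain had 7 and 13 UMIs, and its cells did not share an alpha chain: TRAV5D-4 with TRAJ18 in 1 and TRAV9-4 with TRAJ34 in the other. Both cells of the TRBJ2-7 chain also held a second productive beta chain, TRBV5 or TRBV2, each with TRBJ1-1. The TRBV26 chain with TRBJ2-5 had 3 UMIs, a D1 match of 8 bases and 1 unassigned base.

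UMIs per chain were more numerous in the ATRA library, whose median over all productive chains was also higher. Beta chains of the group had 2 to 8 UMIs in control (median 3, 9 chains) and 1 to 32 in ATRA (median 8, 20 chains). TRB chains of other V segments had a median of 4 in control (1 to 11, 61 chains) and 6 in ATRA (1 to 30, 131 chains). TRBV26 and TRBV14 chains outside the group had a median of 3.5 in control (1 to 25) and 5.5 in ATRA (2 to 13). TRAV21-DV12 chains had a median of 1 in control (1 to 3), where 3 of 5 stood on a single UMI, and 4 in ATRA (1 to 9). The other TRA chains had medians of 2 in control and 3 in ATRA. The ranges of the group and of other chains overlapped in both libraries.

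By form, form 1 had 5 to 12 UMIs over its 8 cells, with a median of 9. Form 2 had 2 to 8 over its 3 cells (median 3) and form 3 had 3 to 9 (median 5). Group cells without a productive alpha chain had 2, 2, 3, 4 and 4 UMIs for the beta chain in control and 4, 5, 9 and 10 in ATRA. Of these ATRA cells, those with 5 and 9 UMIs held a nonproductive alpha contig. Group cells with a productive alpha chain had 2, 3, 3 and 8 in control and a median of 8 in ATRA (1 to 32). The medians without and with a productive alpha chain were 3 and 3 in control and 7 and 8 in ATRA, and the ranges overlapped.

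**Figure D5:**
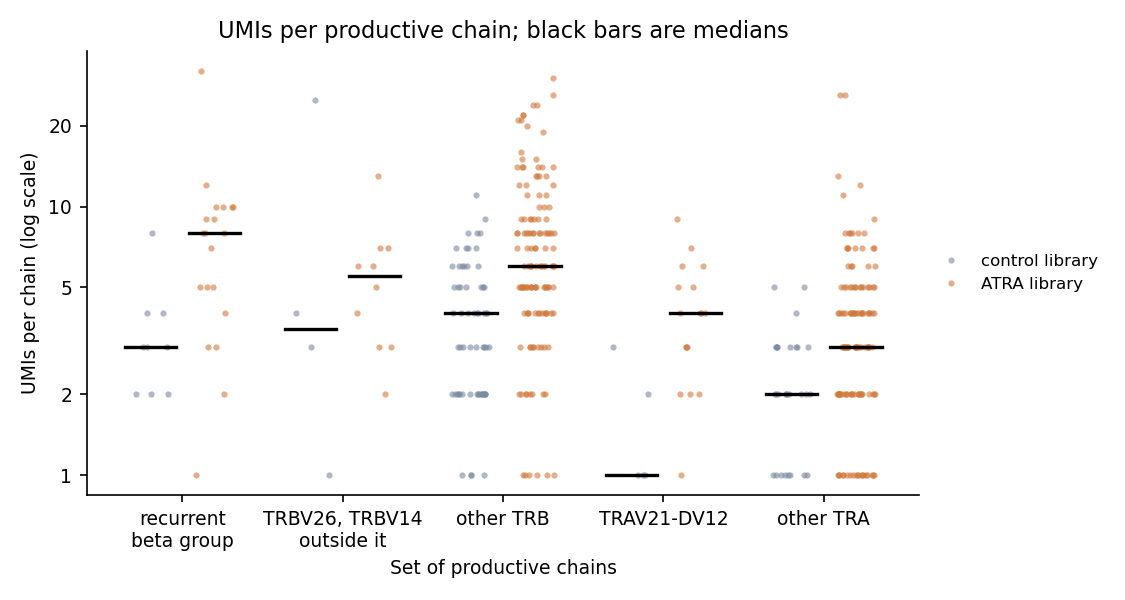
UMIs per productive chain (y axis, log scale) for 5 sets of chains (x axis), with 1 point per chain, colored by library, and black bars at the medians. The group beta chains have medians of 3 in control and 8 in ATRA, and the TRAV21-DV12 chains have medians of 1 and 4.

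Group chains had a median of 11772 reads per UMI in control and 6731 in ATRA. For TRBV26 and TRBV14 chains outside the group the medians were 19812 and 5989. All reads over all UMIs of the productive chains came to 11675 per UMI in control and 4662 in ATRA. The group median was thus below that of the outside chains in control and above it in ATRA. The pooled values are another measure than a median per chain, and no such median is given for TRB chains of other V segments. A TRBV26 chain with TRBJ2-5 in control stood apart among the members, with 25 UMIs on 750 reads, or 30.0 reads per UMI. It had the most UMIs of the TRBV26 and TRBV14 chains in control.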

How the data were processed

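Each receptor library was 1 table of assembled contigs. The columns used were the deposited UMI count and read count of a contig, raw per the file headers, its segment names and its CDR3. The authors used Cell Ranger 3.1.0 and bcl2fastq 2.20.0 with build GRCm38, per the submitters' processing notes. No contig was given a D segment by the authors, per the file headers. Productive TRA and TRB contigs were analysed with Python 3.11.15, pandas 2.3.3, numpy 2.4.6 and scipy 1.17.1. Segment coordinates came from RefSeq GRCm38.p6. The planned comparison with germline segments was replaced by ends derived from the tables' other chains, an end being found for 15 of 21 TRBV and 12 of 12 TRBJ segments. Of 156 distinct TRB chains outside the recurrent group, 144 could be split into parts, and D matches of at least 3 bases were counted. The splitting code was run on simulated junctions of known D strings, which checks the code and not the ends derived here. Cells are not replicates and each treatment had 1 library, so no p-value was computed. A count of 0 was read with a limit of 3 counts. UMIs were read from PCR products, and all intervals cover counting error only.

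The members and lists were chosen with earlier results of these data known. Named in the text were all nucleotide forms of the recurrent group, member CDR3s in at least 2 cells, TRAV21-DV12 chains with a J other than TRAJ53, member chains outside the group by J and length, and partner chains of group cells. The alternatives tried were chains with at least 2 or at least 3 UMIs, cells with both chains, cells with at most 1 productive TRB and at most 2 productive TRA chains, distinct chains in place of cells, other similarity limits, other definitions of the group, and other match rules. No doublet caller was run, and cells with extra chains were kept.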

Additional observations from a re-analysis of the deposited data

Results flagged for a closer look

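In the ATRA library, 3 of 496 contigs were nonproductive TRAV21-DV12 contigs with the CDR3 of the recurrent TRAJ53 chain. In control there were 0 among 159 contigs, which allows a share of up to 1.89%. The ATRA share is below that limit, so the control count of 0 does not set the libraries apart. The 3 contigs are outside every share given above. All 3 had the nucleotides of alpha form 1. They were 314, 341 and 352 bases long, against 461 to 510 bases for the 18 productive TRAV21-DV12 and TRAJ53 contigs. Their UMIs were 21, 11 and 15, on 27, 16 and 25 reads, or 1.29, 1.45 and 1.67 reads per UMI. The first was in a cell with TRBV13-1 and TRBJ2-7, the second in a form 3 cell, and the third in a cell with a beta chain named TRBV12-2+TRBV13-2 and TRBJ2-7. The 2 form 3 cells with a productive TRAJ53 chain had alpha form 2, not alpha form 1. The other 2 nonproductive contigs of the members were TRAV21-DV12 with TRAJ58, with 2 UMIs on 10483 reads, and TRBV14 with TRBJ2-5, with 3 UMIs on 7459 reads.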

How the results depend on the processing

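Over 16 results, 70 of 75 alternative values stayed within the counting interval or limit set for them and 5 moved. Counted over distinct chains in place of cells, the ATRA share was 6.19% for TRBV26 (7 of 113, main value 11.5%) and 4.12% for TRAV21-DV12 (4 of 97, main value 12.8%), since copies of 1 chain then count once. With the most frequent CDR3 alone, without alanine and lysine at position 5, the group held 46.7% of the ATRA TRBV26 and TRBV14 cells (14 of 30, main value 66.7%). With at least 3 UMIs per chain, 1 control TRAV21-DV12 cell was left and its J was not TRAJ53, a share of 0% (0 of 1, main value 60.0%). With segment ends carried by most of a segment's chains, an alternative chosen after seeing the data, the median loss at the J end was 0 bases (main value 2), because the derived TRBJ2-1 start was then shorter. No paired analysis was possible because each treatment had 1 library and the labels carry no replicate numbers. Leaving out a replicate was not possible for the same reason. Few cells and few UMIs limit the control library most: 9 group cells, 4 of them with a productive alpha chain, and 5 TRAV21-DV12 chains with a median of 1 UMI.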
